A study of Mus musculus with 9 samples.

Results

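Among the genes whose mRNA was reduced in the testis of Rfx2-/- mice, 161 were reduced in part. They were chosen from the count table by level alone. A gene was kept when its mean in wild type (WT) was at least 2 CPM (the count of the gene over the total count of its library, in the usual scale), when its Rfx2-/- mean was over 10% and at most 33% of the WT mean, and when every Rfx2-/- library was below every WT library. Genes whose symbols begin with prefixes common among cilium, sperm and olfactory receptor genes, such as Ccdc, Cfap, Dna, Tekt, Spata, Tex, Kif and Olfr, were then left out, which removed 32 further genes of the same range. The 161 were found among 23074 rows, 13647 of which had a WT mean of at least 2 CPM, and 160 of them carry a symbol in GENCODE M21. The difference between the genotypes was thus used to choose the genes, and its size in them is given as a description.

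The libraries came from decapsulated testes of mice aged 29 to 30 days on a mixed C57BL/6, 129/Sv and FVB/N background, 5 from WT mice and 4 from Rfx2-/- mice, each library from a mouse of its own. The Rfx2-/- allele lacks an exon that encodes much of the DNA binding domain and was made by Cre recombination of a floxed allele. Whole testis holds somatic cells and all germ cell stages reached at this age, so fewer cells of a type and less RNA per cell cannot be told apart. The totals were 13574764 to 15193330 counts in 8 libraries and 28800855 in Rfx2-/- replicate 1. Rfx2 itself was at 494 to 556 CPM in WT and at 66.3 to 208 CPM in Rfx2-/-, with replicate 2 the lowest, and counts per gene do not resolve the deleted exon. In Rfx2-/- replicate 2, genes with long exons were low and genes with short exons high. In WT replicate 3, the partly reduced genes were lower than in the other WT libraries. Without Rfx2-/- replicate 2, a comparison chosen after seeing the data, 24 of the 161 genes were over 33% of WT and 5 were at or below 10%. Of the genes named here the former were Adgb, Atxn7l1, Eif2b4, Otud3, Vwf, Rin1, Asap3 and Pcdh15, and the latter Zswim2, Apoh, Ndufa4l2 and Me3.

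RFX2 is a winged-helix transcription factor of spermatocytes and spermatids that binds the X-box, an imperfect inverted repeat with the half-sites GTTGCC and GGCAAC. RFX factors are best known for switching on genes of the cilium, and in the male germ line the flagellum of the sperm is built by the same kind of axoneme. Spermatids also remodel their junctions, cytoskeleton, membranes and metabolism as they elongate.

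The omission of symbol prefixes did not leave a set without axoneme genes. The highest of the 161 was Spag17, a component of the central pair apparatus of motile cilia, and Armc4, which takes part in docking the outer dynein arms, and Maats1, a radial spoke protein, were also among them. The genes are therefore called here by their level, as partly reduced genes.

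**Figure D1:**
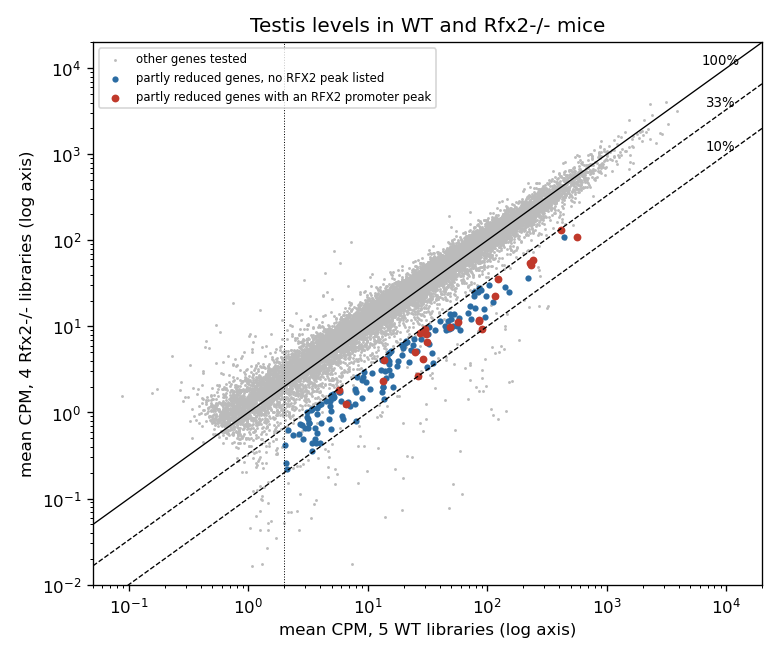
Mean CPM in the 5 WT libraries (x, log axis) and the 4 Rfx2-/- libraries (y, log axis) for each gene tested, with the 161 partly reduced genes in blue, or in red where an RFX2 promoter peak was listed. Lines mark equal levels, 33% and 10%, and the dotted line 2 CPM in WT. The coloured genes lie between the dashed lines by choice, with WT means from 2.02 to 566 CPM.

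Promoters of some of the partly reduced genes held sequences close to the X-box, and 8 are shown here because RFX2 binding is what the study tested for. The first 6 are all the partly reduced genes that had both a promoter peak of RFX2 in chromatin immunoprecipitation of dissociated germ cells, not whole testis, from WT mice aged 21 days, as listed by the study, and a match with at most 2 mismatches to the 12 fixed bases of the 2 half-sites. Spag17, also with a peak, has 3 mismatches and is shown as the gene with the highest level. Orai2, a subunit of store-operated calcium channels, had no listed peak and has 1 mismatch. Each sequence is the RefSeq promoter on GRCm38, from 250 bases before to 50 bases after the transcription start, printed 5′ to 3′ on the strand of the gene, with the half-site positions of the best match in capitals.
Spats1: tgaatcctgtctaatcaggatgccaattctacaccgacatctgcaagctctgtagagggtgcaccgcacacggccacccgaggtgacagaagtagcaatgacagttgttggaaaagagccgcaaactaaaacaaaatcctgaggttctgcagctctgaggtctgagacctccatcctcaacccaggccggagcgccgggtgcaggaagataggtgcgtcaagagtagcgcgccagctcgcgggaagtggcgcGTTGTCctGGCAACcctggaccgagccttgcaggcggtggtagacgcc
Btbd16: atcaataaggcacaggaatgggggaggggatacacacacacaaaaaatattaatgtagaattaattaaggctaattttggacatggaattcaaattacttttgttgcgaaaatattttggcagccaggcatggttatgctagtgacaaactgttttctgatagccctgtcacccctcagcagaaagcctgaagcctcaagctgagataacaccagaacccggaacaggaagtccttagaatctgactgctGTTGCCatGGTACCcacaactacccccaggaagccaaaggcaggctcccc
Maats1: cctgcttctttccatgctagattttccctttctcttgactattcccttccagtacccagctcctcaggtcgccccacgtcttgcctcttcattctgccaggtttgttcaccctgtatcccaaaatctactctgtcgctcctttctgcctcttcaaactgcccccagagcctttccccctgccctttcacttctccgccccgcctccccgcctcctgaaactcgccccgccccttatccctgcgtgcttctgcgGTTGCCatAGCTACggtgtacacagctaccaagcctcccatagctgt
Catip: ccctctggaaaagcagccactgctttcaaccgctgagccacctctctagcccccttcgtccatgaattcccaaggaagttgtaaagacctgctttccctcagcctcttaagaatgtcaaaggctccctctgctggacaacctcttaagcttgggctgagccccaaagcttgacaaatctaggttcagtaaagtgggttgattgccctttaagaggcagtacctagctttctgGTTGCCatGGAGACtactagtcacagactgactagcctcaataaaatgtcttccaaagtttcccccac
Zswim2: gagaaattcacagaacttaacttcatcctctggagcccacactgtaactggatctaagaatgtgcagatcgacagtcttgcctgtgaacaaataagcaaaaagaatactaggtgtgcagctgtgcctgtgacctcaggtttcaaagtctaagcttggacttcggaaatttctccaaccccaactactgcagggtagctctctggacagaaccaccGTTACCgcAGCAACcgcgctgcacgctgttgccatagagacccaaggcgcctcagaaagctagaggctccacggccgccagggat
Klhdc9: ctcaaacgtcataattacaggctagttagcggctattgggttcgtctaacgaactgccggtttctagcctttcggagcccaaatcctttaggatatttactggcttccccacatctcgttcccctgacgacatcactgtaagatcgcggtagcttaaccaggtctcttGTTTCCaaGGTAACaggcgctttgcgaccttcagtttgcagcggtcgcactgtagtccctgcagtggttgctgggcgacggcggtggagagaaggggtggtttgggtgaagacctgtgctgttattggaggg
Spag17: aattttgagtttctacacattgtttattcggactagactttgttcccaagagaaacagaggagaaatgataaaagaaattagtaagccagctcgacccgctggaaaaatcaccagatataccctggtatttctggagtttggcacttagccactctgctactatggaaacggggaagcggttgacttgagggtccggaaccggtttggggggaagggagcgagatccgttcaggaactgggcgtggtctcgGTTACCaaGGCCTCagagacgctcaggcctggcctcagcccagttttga
Orai2: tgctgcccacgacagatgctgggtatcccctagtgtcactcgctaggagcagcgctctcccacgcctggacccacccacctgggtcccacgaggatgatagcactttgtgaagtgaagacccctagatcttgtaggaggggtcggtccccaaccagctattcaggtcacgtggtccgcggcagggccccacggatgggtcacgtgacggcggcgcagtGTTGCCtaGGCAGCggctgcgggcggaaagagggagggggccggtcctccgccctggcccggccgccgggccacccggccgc

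These windows lie at chr17:45474889-45475188 for Spats1, chr7:130773889-130774188 for Btbd16, chr16:38341811-38342110 for Maats1, chr1:74361885-74362184 for Catip, chr2:83941177-83941476 for Zswim2, chr1:171360749-171361048 for Klhdc9, chr3:99885167-99885466 for Spag17 and chr5:136170607-136170906 for Orai2. The centre of the match was 9 bases after the start in Spats1, 10 bases after it in Maats1, 7 bases after it in Btbd16 and 8 bases after it in Spag17. In Catip, Zswim2 and Klhdc9 it was upstream, at -11, -28 and -75, and in Orai2 at -25. Btbd16 has another start in the RefSeq table, upstream of the one shown, and the best window around it has 4 mismatches.

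At least 1 RefSeq promoter was found by symbol for 121 of the 161 genes, and the best match over all promoters of a gene was kept. With at most 2 mismatches, 14 of the 121 genes (11.6%) held a match, against 525 of 12017 genes tested that have a promoter (4.37%). With the same symbols left out, the share was 11.4% at or below 10% of WT and 7.41% over 33% and up to 50%. Among genes left out for their symbols it was 34.6%. The half-sites are reverse complements of each other, so both strands are read at once, and the 2 bases between them are free. Half-sites at any other spacing were not searched for, so these counts cover this spacing only. With at most 1 mismatch the counts were 3 of 121 (2.48%) against 1.10%, and with at most 3 they were 39 of 121 (32.2%) against 19.4%. Where a peak was listed, 6 of 16 genes (37.5%) matched with at most 2 mismatches, and 8 of 105 (7.62%) where none was. Among the matches of the partly reduced genes, 11 of 14 were centred within 100 bases of the start, compared with 64.2% of the 525. A match is a string of letters and no proof of a site.

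**Figure D2:**
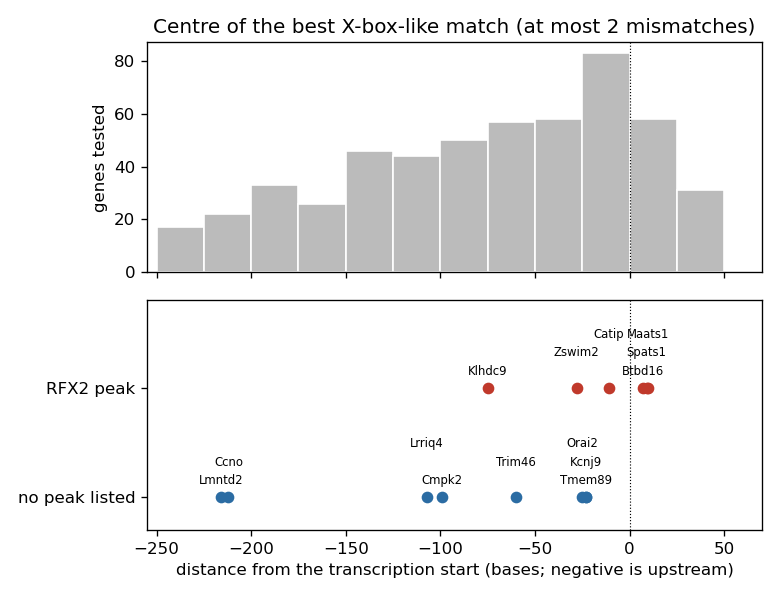
Distance of the centre of the best match (at most 2 mismatches to the 12 fixed bases) from the transcription start in bases, as a histogram over the 525 genes tested that have one (top) and for the 14 partly reduced genes (bottom), split by whether an RFX2 peak was listed. The 6 genes with a peak lie between -75 and 10, and Lmntd2 and Ccno lie more than 200 bases upstream.

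RFX2 promoter peaks were a separate readout, taken from other mice. They were listed for 23 of the 161 genes (14.3%), against 953 of 15613 genes tested (6.10%). For genes with the same symbols left out, the share was 17.5% among the 63 at or below 10% of WT and 9.94% among the 171 over 33% and up to 50%. Among the 32 genes left out for their symbols it was 43.8%. The 23 were Spag17, Cep295nl, Mipep, Ppp1r32, Btbd16, Adgb, Dlec1, Zswim2, Ms4a13, Maats1, Armc4, Got1l1, Dcdc2a, Rab36, Spats1, Neurl1a, Prss44, Ndufa4l2, Catip, Shisa7, Caps2, D130043K22Rik and Klhdc9. Their median WT mean was 49.3 CPM, and that of the 138 others was 14.02 CPM. The median Rfx2-/- level was 20.3% of WT with a peak and 23.7% without. In the study's list of genes lower in Rfx2-/- mice at P21, 28 of the 161 were found (17.4%), against 103 of the 15613 genes tested (0.660%). The 161 were chosen for low levels in the same mutant. In the same classes as above, the P21 share was 41.3% at or below 10% of WT and 6.43% over 33% and up to 50%. Among the 32 genes left out for their symbols it was 18.8%. Of the 28, 6 had a peak, namely Armc4, Dcdc2a, Rab36, Spats1, Prss44 and D130043K22Rik. The P21 list was drawn up by the study from mice of that age, which are not among these libraries.

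The genes with a peak and a high level differed in how evenly they were reduced among the Rfx2-/- libraries. Ppp1r32, annotated to cilia, was at 254, 246, 181, 227 and 254 CPM in WT and at 51.6, 53.2, 55.7 and 46.9 CPM in Rfx2-/-. All 4 Rfx2-/- libraries lay close together at 51.9 ± 3.70 CPM (SD, n = 4), or 22.3% of WT. Cep295nl was at 393, 458, 297, 422 and 491 CPM in WT and at 145, 125, 133 and 123 CPM in Rfx2-/-. Its Rfx2-/- mean, 31.8% of WT, was the mean of closely grouped libraries, and WT replicate 3 was the lowest WT library.

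Spag17 (chromosome 3, 99885406 to 100143322) was at 567, 584, 525, 613 and 540 CPM in WT and at 154, 39.8, 140 and 99.5 CPM in Rfx2-/-. The lowest value was that of replicate 2, without which the Rfx2-/- mean was 23.2% of WT in place of 19.2%. Of its exon length, 15.7% overlaps exons of Spag17os and Wdr3, and the value of Spag17 is uncertain to that extent. Reads over exons of several counted genes were left out. Only protein coding isoforms were counted and use of strand is not given, so reads over the overlap may have been left out or added. Dlec1 and Adgb, large proteins of the flagellum, followed the same order. Dlec1 was at 111 to 123 CPM in WT and at 34.9, 7.57, 24.99 and 23.4 CPM in Rfx2-/-. Adgb was at 105, 112, 119, 162 and 117 CPM in WT and at 47.6, 12.2, 41.9 and 39.7 CPM in Rfx2-/-, so that without replicate 2 its level was 35.1% of WT, above the limit of 33%. Replicate 2 was the lowest Rfx2-/- library in all 3 of these long genes.

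Mipep, which trims proteins imported into mitochondria, was at 237, 245, 207, 259 and 272 CPM in WT and at 66.5, 45.9, 71.6 and 51.5 CPM in Rfx2-/-. Btbd16, a BTB domain protein, was at 233, 234, 192, 237 and 252 CPM in WT and at 50.03, 72.3, 49.6 and 44.4 CPM in Rfx2-/-. Here replicate 2 was the highest Rfx2-/- library, and the groups remained far apart. Zswim2, a ubiquitin ligase of the testis, was at 102, 102, 72.6, 138 and 40.1 CPM in WT and at 14.5, 11.2, 6.76 and 5.00 CPM in Rfx2-/-. Its WT libraries ranged from 40.1 to 138 CPM, and its Rfx2-/- mean was 10.3% of WT, just inside the lower limit. Ms4a13 had 86.0 ± 8.88 CPM in WT (SD, n = 5) and 11.9 ± 3.81 CPM in Rfx2-/- (SD, n = 4), or 13.9% of WT. Maats1 had 85.6 ± 9.08 CPM in WT (SD, n = 5) and 11.6 ± 2.16 CPM in Rfx2-/- (SD, n = 4), or 13.5%.

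**Figure D3:**
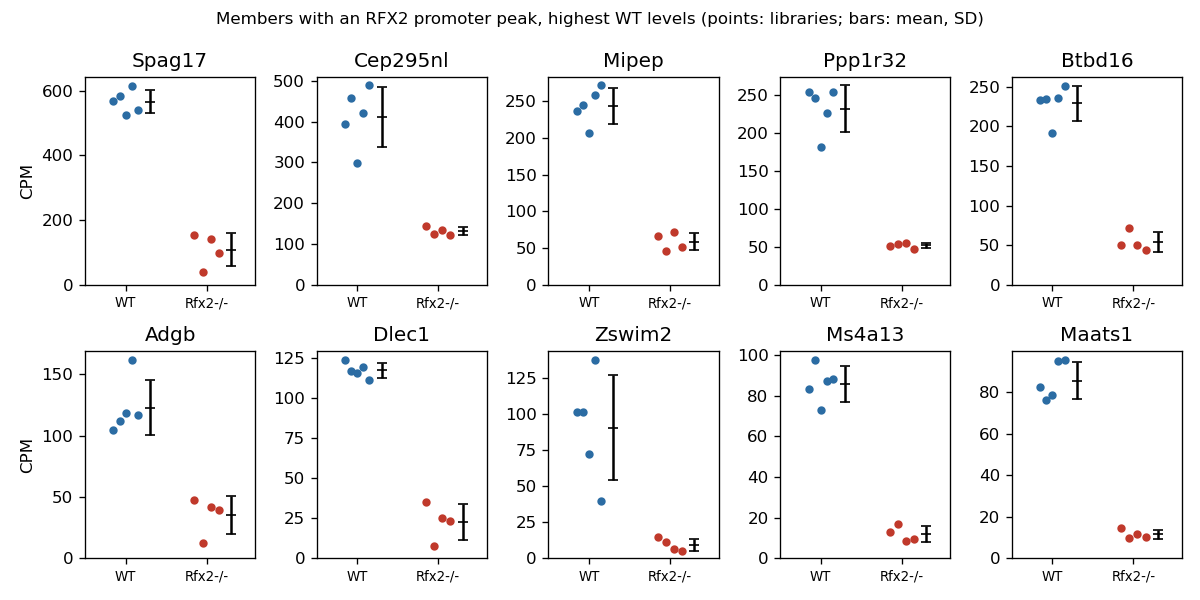
CPM in each library of the 10 partly reduced genes with an RFX2 promoter peak and the highest WT means; each axis starts at 0, points are the 5 WT and 4 Rfx2-/- libraries, and bars give the mean and SD. No Rfx2-/- library overlaps a WT library, as the choice requires, and in Spag17, Adgb and Dlec1 the lowest point is Rfx2-/- replicate 2.

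Across all 161 genes, the median WT mean was 15.1 CPM and the median Rfx2-/- level 23.2% of WT, with 25 genes over 10% and up to 15%, 30 up to 20%, 40 up to 25% and 66 up to 33%. The log2 fold change, fitted by edgeR's quasi-likelihood test on TMM-scaled counts, ran from -3.47 to -1.68 with a median of -2.24, and was 0.03 over all genes tested. Called lower at an adjusted p of at most 0.01 and more than 2-fold were 159 of the 161, against 3.68% of all genes tested, and called higher were 0.826%. The rule used this contrast, so nothing is read from that count. The exceptions, Kcnj9 and Shisa7, had one Rfx2-/- library near the WT range. Every Rfx2-/- library lay below every WT library in 7.06% of genes tested, and in all of the 161 by choice, with the lowest WT library at least 2 times the highest Rfx2-/- library in 121 of them.

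Levels can be compared between genes only per length. The length used merges all GENCODE M21 exons of a gene, not only those of the protein coding isoforms that were counted. It is thus approximate, here and in the length classes. As CPM over merged exon length in kb, the highest WT mean was that of Cep295nl at 212, followed among the named genes by Ppp1r32 at 141, Actl11 at 110 and Spag17 at 66.7. The order thus differed from that by CPM, in which Spag17 was first. The median of the partly reduced genes on this scale was 3.69 in WT and 0.816 in Rfx2-/-.

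The limits of the rule cut through genes of near-equal value. Ndufa4l2 and Me3 were just inside the lower limit at 10.10% and 10.13% of WT, and Aldh3b1 and Dlgap3 just outside at 9.89% and 9.76%. At the upper limit Asap3 and Pcdh15 were inside at 32.97% and 32.83%, and Tbc1d2 and Gucy2d outside at 33.1% and 33.2%. At the level limit Tm4sf19 and Aldh8a1 had WT means of 2.02 and 2.05 CPM, and Slc6a11 and Ky had 1.94 and 1.91 CPM. A further 9 genes met the level and share but overlapped between genotypes.

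Cilium and flagellum genes were 17 of the 161. Their WT means ran from 4.93 to 566 CPM, and their Rfx2-/- levels from 13.0% to 31.3% of WT, and 9 had a promoter peak. Cep131, a centriolar satellite protein, was at 23.1% of WT, and Armc4 was at 52.3 to 61.6 CPM in WT and at 13.0, 10.4, 9.63 and 12.1 CPM in Rfx2-/-. Catip, in none of the role lists, is a ciliogenesis-associated protein, and its values were 23.6 to 26.4 CPM in WT and 4.41 to 5.90 CPM in Rfx2-/-. Of 57 other genes of the same list that were tested, 11 were called lower, with a median log2 fold change of -0.22 against 0.03 over all genes tested. Iqub had a log2 fold change of -4.86 (edgeR adjusted p = 1.29e-07) and Spag8 one of -4.46 (edgeR adjusted p = 7.81e-08). Gas8, a subunit of the nexin-dynein regulatory complex, had -1.39 (edgeR adjusted p = 0.000377) and Zmynd10, a dynein arm assembly factor, -1.38 (edgeR adjusted p = 0.000122). The lists of roles were drawn up with earlier results of these data known, and counts over them are descriptions.

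Actin, adhesion and matrix genes were the largest group, with 21, and none had a promoter peak. Tln2, which links integrins to actin, was at 265, 229, 172, 188 and 244 CPM in WT and at 66.8, 18.9, 35.0 and 25.7 CPM in Rfx2-/-, and Srcin1, an adaptor that restrains Src kinase, at 173, 168, 80.2, 144 and 193 CPM in WT and at 28.7, 15.2, 36.2 and 20.3 CPM in Rfx2-/-. Both groups were well apart, and in both genes replicate 2 was the lowest Rfx2-/- library. Actl11, an actin-like protein, was at 474, 494, 304, 453 and 477 CPM in WT and at 152, 57.4, 139 and 90.0 CPM in Rfx2-/-. Tmod2, which caps the pointed end of actin filaments, was at 20.9% of WT. The group also held integrin chains (Itga1, Itga2), protocadherins (Pcdh1, Pcdh15), the atypical cadherin Fat3, collagens (Col9a1, Col12a1, Col14a1), the matrix proteins Tnc and Ncan, and the formin Fmnl1. Of 39 other tested genes in the list, 5 were called lower and 1 higher (Afap1l1, log2 fold change 1.71, edgeR adjusted p = 0.00109), with a median of -0.11.

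Metabolic enzymes and transporters were 17, with 3 promoter peaks (Mipep, Got1l1 and Ndufa4l2). Car2, a carbonic anhydrase, was at 106, 93.1, 55.1, 91.7 and 122 CPM in WT and at 19.3, 22.9, 11.6 and 9.41 CPM in Rfx2-/-. Got1l1, related to aspartate aminotransferase, was at 40.8 to 54.2 CPM in WT and at 8.31 to 10.7 CPM in Rfx2-/-, and Abhd16b at 24.2% of WT. Of 54 other tested genes, 15 were called lower, among them Aldh3b1 (log2 fold change -3.48, edgeR adjusted p = 3.54e-08) and Aldh3b2 (log2 fold change -6.28, edgeR adjusted p = 7.81e-08), aldehyde dehydrogenases. Ubiquitin ligases, deubiquitinases and proteases were 12, with 5 peaks, and included Usp12 at 29.6% and Otud3 at 32.4% of WT (34.9% without Rfx2-/- replicate 2). Of 40 other genes tested, 4 were called lower.

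Signalling genes were fewer. Of 8 genes of phosphoinositide and calcium signalling, Pik3cd, a catalytic subunit of PI 3-kinase, had the highest level, at 89.5 to 128 CPM in WT and at 25.2, 11.9, 19.6 and 19.4 CPM in Rfx2-/-. Inpp5d, the phosphatase SHIP1, was at 25.5% of WT, Jph4, a junctophilin, at 10.6% and Cib4 at 24.7%. Of 47 other genes tested, 5 were called lower. Of 8 genes of small GTPases and vesicle traffic, Pitpnm1, a phosphatidylinositol transfer protein, Rab36, Rin1 and Rhobtb2 had the highest WT means, at 32.2, 30.5, 29.2 and 25.8 CPM, and stood at 25.2%, 26.6%, 30.7% and 20.2% of WT. Without Rfx2-/- replicate 2 Rin1 was at 35.7%. Of 59 others, 10 were called lower.

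Ion channels were 8, and none had a peak. Kcnj9, an inward rectifier, was at 102, 57.7, 91.7, 56.5 and 49.6 CPM in WT and at 45.2, 6.06, 6.32 and 11.5 CPM in Rfx2-/-. Its first Rfx2-/- library lay just under the lowest WT library. The log2 fold change of Kcnj9 was -2.13 ± 0.55 (SE), the largest error among the named genes, and -3.24 without Rfx2-/- replicate 1, where it was called lower. Kcng4, Cacng8 and Tmc1 were at 25.7%, 23.2% and 27.8% of WT with Rfx2-/- libraries that lay closer together. Of 132 other channel genes tested, 13 were called lower and 2 higher, with a median of 0.03, the same as over all genes. Trpm6, a magnesium channel, had a log2 fold change of -3.73 (edgeR adjusted p = 1.31e-07) and Cacna1i, a T-type calcium channel, one of -3.67 (edgeR adjusted p = 1.28e-05).

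Transcription factors and cofactors were 10, again with no peak. Atxn7l1 was at 97.1 to 107 CPM in WT and at 45.1, 11.7, 35.6 and 29.6 CPM in Rfx2-/-, where replicate 2 was again lowest. Zfp13, Prdm8 and Esrra, a nuclear receptor of energy metabolism, were at 24.6%, 22.7% and 29.5% of WT. Prdm8 shares 26.7% of its transcript 50-mers with other genes, and its value is uncertain to that extent. Of 53 other genes tested, 9 were called lower. Genes best known from neurons were 10, among them Rtn1, a reticulon, at 20.5% of WT, Fam131a at 19.6%, Dbndd1 at 20.9% and Adgrl3, an adhesion receptor, at 14.2%. Of 24 others, 6 were called lower. Receptors and secreted proteins were 8, including Bpifa3 at 18.2%, Tmem190 at 19.7%, Agtr1a, an angiotensin receptor, at 28.9%, and Smpdl3a at 19.5%. Of 9 others tested, 4 were called lower (44.4%), with a median log2 fold change of -1.53. The 33 genes in none of the lists had WT means of 2.02 to 412 CPM and Rfx2-/- levels of 10.4% to 32.7% of WT, and 4 of them had a peak.

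Vascular and immune genes were 10. Apoh was at 36.1, 37.1, 26.1, 38.6 and 38.2 CPM in WT and at 3.61, 4.61, 3.38 and 3.49 CPM in Rfx2-/-. Pdgfa, a growth factor, was at 27.7% of WT and Stap2 at 29.7%. Of 21 other genes of this list tested, 9 were called lower (42.9%, against 3.68% of all genes tested), with a median log2 fold change of -0.84. This list too was drawn up with earlier results known. Vwf, the von Willebrand factor of endothelial cells, was at 38.5, 34.3, 22.3, 35.3 and 31.6 CPM in WT and at 12.3, 2.67, 13.2 and 11.3 CPM in Rfx2-/-, and without replicate 2 it was at 37.8% of WT. Of 12 endothelial markers, Vwf and Sele were called lower, Flt1 was called higher (log2 fold change 1.32, edgeR adjusted p = 0.00223) and the other 9 were not called. The 12 summed to 90.0 to 101.1 CPM in WT and to 58.8 to 106 CPM in Rfx2-/-, where the lowest sum was that of replicate 2 and the next 90.6 CPM, and none was at 0 in all libraries. That sum holds both Vwf, which was lower, and Flt1, which was higher.

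Markers of germ cell stages and somatic cells were measured in the same libraries. Spermatogonia markers summed to 782 to 946 CPM in WT and to 984 to 1255 CPM in Rfx2-/-, at most 1021 CPM without replicate 2. Of these 12 markers, 0 were called by edgeR or DESeq2. Sums of late spermatocyte, Sertoli, Leydig and peritubular markers overlapped between the genotypes, with 0 called in each list. All 14 genes listed as markers of elongating spermatids had a negative log2 fold change, with a median of -0.71. By edgeR 0 were called, 10 were lower at an unadjusted p under 0.05, and DESeq2 called 3 lower. They summed to 9830 to 17735 CPM in WT and to 7863 to 13222 CPM in Rfx2-/-. Replicate 2 was the highest of the Rfx2-/- libraries, and the others reached 9366 CPM. The paper reports that Rfx2-/- spermatids stop developing before they elongate. It also reports that mRNA of the transition proteins was not lowered, and that such mRNA is held untranslated in round spermatids. The sums of this list are therefore mRNA levels and give no count of elongating cells. All 15 markers of spermatocytes in meiotic prophase were tested, with 0 called by edgeR or DESeq2 and 7 higher at an unadjusted p under 0.05, and they summed to 1817 to 2261 CPM in WT and to 2713 to 5048 CPM in Rfx2-/-, at most 3005 CPM without replicate 2. Of 15 round spermatid markers 1 was called lower (Tex21, log2 fold change -3.54, edgeR adjusted p = 2.43e-07). At an unadjusted p under 0.05, 6 of the 15 were higher, and the median log2 fold change was 0.09. They summed to 2198 to 3162 CPM in WT and to 2436 to 3703 CPM in Rfx2-/-, at most 2995 CPM without replicate 2. Macrophage markers summed to 120 to 181 CPM in WT and to 153 to 310 CPM in Rfx2-/-, at most 199 CPM without replicate 2, with 0 of 12 called by edgeR or DESeq2 and 4 higher at an unadjusted p under 0.05. The part of these shifts in the partly reduced genes was not tested. Counts at the unadjusted p stand without the share of all genes tested at that limit, so nothing is read from them.

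**Figure D4:**
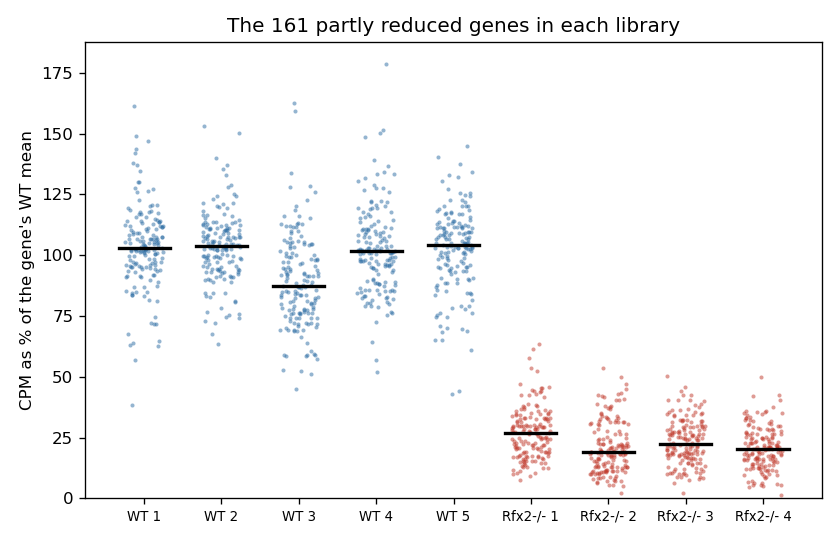
Each of the 161 genes (points) in each library, as a percentage of its WT mean (y, from 0), with the median as a bar, WT in blue and Rfx2-/- in red. The medians were 87.4% in WT replicate 3 and 102% to 104% in the other WT libraries, and 26.9%, 19.2%, 22.5% and 20.2% in Rfx2-/- replicates 1 to 4.

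Within the genotypes, the Rfx2-/- libraries spread more on the log2 scale than the WT libraries for 135 of the 161 genes, and for 111 without replicate 2. The median SD of log2 CPM was 0.47 among the Rfx2-/- libraries and 0.24 among the WT libraries, beside 0.39 and 0.20 over all genes tested. Without replicate 2 it was 0.31 for the 161 genes and 0.23 over all genes tested. The closest Rfx2-/- libraries, among genes with at least 50 counts on average, were those of Eif2b4, Ppp1r32 and Cep295nl (0.09, 0.10 and 0.11), and the widest those of Kcnj9, Fat3 and Vwf (1.35, 1.29 and 1.10). Eif2b4, a translation initiation factor subunit, was at 26.7, 27.0, 30.4 and 27.6 CPM in Rfx2-/-, against 77.2 to 88.9 CPM in WT. Fat3 was at 6.28, 1.154, 8.75 and 5.00 CPM in Rfx2-/-, and replicate 2 was the lowest library in Fat3 and in Vwf, both with long transcripts.

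Length and library moved together. Of the 161 genes, 58 had merged exons under 3 kb, 51 had 3 to 6 kb and 51 had 6 kb or more. In Rfx2-/- replicate 2 their median level was 23.6%, 18.1% and 13.4% of WT in that order. In replicate 1 it was 23.5%, 29.5% and 26.9%, in replicate 3 it was 20.5%, 24.96% and 24.5%, and in replicate 4 it was 19.3%, 21.9% and 18.8%. Over all genes tested with a WT mean of at least 2 CPM, replicate 2 stood at 151%, 104% and 75.5% of WT in the same classes. The median exon length of the partly reduced genes, 4140 bases, was close to that of all genes tested, 4213 bases. The cause of the length trend was not tested.

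**Figure D5:**
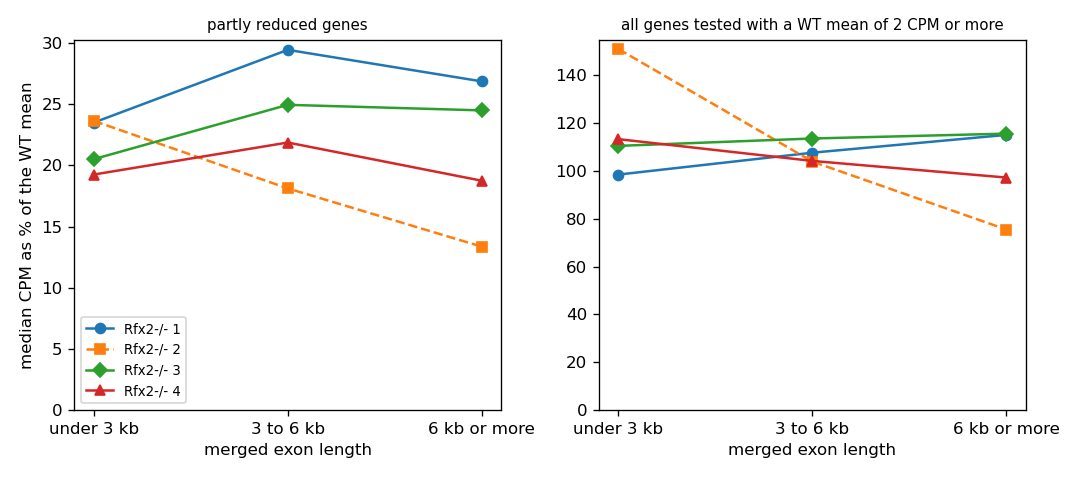
Median CPM as a percentage of the WT mean (y, from 0) by merged exon length (x) in each Rfx2-/- library, for the 161 partly reduced genes (left) and all genes tested with a WT mean of 2 CPM or more (right). The dashed line of replicate 2 falls from 23.6% to 13.4% on the left and from 151% to 75.5% on the right.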

How the data were processed

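Total RNA of decapsulated testes was sequenced after TruSeq library preparation. The authors mapped single reads to GRCm38, discarded reads with more than 1 position and counted reads over merged exons of protein coding isoforms, leaving out those that overlapped exons of several genes. Per the submitters' processing notes CASAVA 1.8.2, STAR 2.4 and featureCounts 1.4.6 were used. The deposited values are raw read counts per gene, and use of strand is not given in the sources used here, so genes overlapping on the other strand are uncertain. All 9 sample columns were used. Symbols and positions were taken from GENCODE M21 (96.6% of IDs), and the partly reduced genes and all lists were chosen with earlier results of these data known. CPM is count / column total.

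All 15613 genes kept by filterByExpr were fitted with edgeR 4.0.16 (R 4.3.3), TMM factors and the robust quasi-likelihood test, with Benjamini-Hochberg adjustment. Calls needed an adjusted p of at most 0.01 and more than 2-fold. DESeq2 1.42.0, other size factors, no filter and the omission of each library were alternatives. On simulated data of 15326 genes for WT against Rfx2-/-, 96 of 100 4-fold and 99 of 100 8-fold changes were recovered, with 3 false calls among 15126. Its counts were drawn independently for each gene and library around WT means. The length trend of Rfx2-/- replicate 2 and the shift of WT replicate 3 are not in it. Its rates need not hold for the real libraries. Named genes were those with the highest WT means in each role list, overall and among genes with a peak, those next to the limits of the rule, and those with the widest and closest Rfx2-/- libraries, and genes outside the rule only where called. Replicate numbers follow sample order, and p-values set the difference between the genotypes against the spread between these mice. The peak and P21 lists were taken from the study's supplementary table as gene names only.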

Additional observations from a re-analysis of the deposited data

Results flagged for a closer look

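A library stood apart from its group in 15 of 124 groups examined, and 9 of the 15 were WT replicate 3. Chance would give about 6.2 (1 in 20) if the groups were independent. They were not, since they draw on the same 9 libraries, the medians share genes, and some genes were named for their spread. The count is therefore a description. In that library Actl11 was at 304 CPM, Apoh at 26.1 CPM, Cib4 at 8.78 CPM and Prdm8 at 38.3 CPM, each below the other WT libraries. The median of the 161 partly reduced genes was 87.4% of the WT mean there. It was 92.1% for genes with an RFX2 peak, 86.9% for those without, 80.3% for exons under 3 kb and 91.9% for exons of 3 to 6 kb, against 101.03% to 108% in the other WT libraries for each. Summed markers of elongating spermatids (9830 CPM) and of round spermatids (2198 CPM) were the lowest of the WT libraries there. Those of spermatogonia (946 CPM), Sertoli cells (1816 CPM), Leydig cells (1087 CPM) and macrophages (181 CPM) were the highest. The part of these markers in the lower values was not tested.

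Among the remaining cases, Kcnj9 reached 45.2 CPM in the first Rfx2-/- replicate, whereas its 3 fellow libraries held 6.06 to 11.5 CPM. In Rfx2-/- replicate 2 Cib4 was at 5.70 CPM and Esrra at 10.2 CPM, both above the others, and in Rfx2-/- replicate 3 Cacng8 was at 1.76 CPM, below them. Adgb was at 162 CPM in WT replicate 4 and Pcdh15 at 2.65 CPM in WT replicate 2.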

How the results depend on the processing

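The 161 genes became 178 on TMM-scaled CPM (153 shared), 123 with a WT mean of at least 5 CPM, 95 with an upper limit of 25% and 332 with one of 50%. Leaving out each library in turn gave 154 to 185, of which 132 to 156 were among the 161, with the fewest shared without Rfx2-/- replicate 2. The median Rfx2-/- level was 21.1% on TMM-scaled CPM and 21.9% to 23.6% without each library. Called lower were 145 to 159 of the 161 without each library, 161 by DESeq2 and 156 with total counts, which moved the median log2 fold change of all genes from 0.03 to 0.16. Over all genes, 447 to 632 were called lower and 92 to 175 higher without each library, and DESeq2 called 211 higher in place of 129. Of the other genes of the role lists, 91 were called lower and 3 higher, and 70 to 95 lower and 2 to 8 higher without each library. DESeq2 called 6 of them higher and total counts 7. X-box matches were 3 with at most 1 mismatch and 39 with at most 3, in place of 14. The study used littermates of equal age where it could, but the labels give no litter. No paired analysis was therefore possible, and any pairing by litter was left out. Genes near 2 CPM rest on few counts, with a mean of 4 per Rfx2-/- library in the lowest.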

Other observations

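On chromosome 17, within 10 Mb of Rfx2, lay Pp2d1, Stap2 and Cntnap5c, 1.86% of the 161 genes, beside 0.794% of the genes tested. CilDB or Syscilia, as listed by the study, annotated 58 of the 159 partly reduced genes in its table to cilia (36.5%). Of the 1623 genes tested that are in the table, 640 (39.4%) were so annotated. That table holds RFX2 targets and genes that differ in Rfx2-/- testis, so it gives no share for all genes. With the same symbols left out, the share was 40.3% at or below 10% of WT and 31.9% over 33% and up to 50%. Among genes left out for their symbols it was 56.25%. Known overlaps limit a few values, since 17 genes share over 10% of their transcript 50-mers with other genes and 6 over 25%, namely Prdm8, Spats1, Gm4871, Fam205a1, Klhdc9 and Hist1h4a.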
